A study of Mus musculus with 8 samples.

Results

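Heat shock proteins and cytosolic chaperones help other proteins to fold, to stay folded under stress and to be handed on for degradation. The genes described are 34 mouse members of these families, chosen by symbol as a list, and all 34 were found among the 55414 gene rows of the count table. They comprise 2 heat shock factors, 4 HSP70 and 3 HSP110 genes, 3 partners of HSP70, 2 HSP90 genes and 4 of their co-chaperones, 5 DNAJ genes, 1 small heat shock protein, the 2 subunits of the mitochondrial chaperonin and the 8 subunits of the cytosolic chaperonin CCT.

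Red pulp macrophages are the splenic macrophages that clear worn-out erythrocytes and recover iron from them. They were sorted by flow cytometry from spleens of C57BL/6J mice, WT in both groups, and collected 2 h after the operation. The operation was cecal ligation and puncture (CLP, 4 libraries), a model of sepsis in which gut contents leak into the abdomen, or Sham surgery as its control (4 libraries). The labels give no age and do not state whether each library came from its own mouse, so the p-values reflect only spread among these libraries, and that spread may be technical. Total counts were 17333748 to 21409078 in CLP libraries and 15392992 to 25665633 in Sham libraries, and levels below are CPM, read counts divided by the library total after that total was scaled by the TMM method.

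In a resting cell the constitutive chaperones of the HSP70 and HSP90 families, with DNAJ proteins that deliver substrates and co-chaperones that steer the ATP cycle, fold a large share of the cytosolic proteins. CCT, a barrel built of 8 different subunits, folds actin and tubulin among others. When unfolded proteins build up, the transcription factor HSF1 is released from chaperones, binds heat shock elements in promoters and switches on the inducible members, Hspa1a, Hspa1b, Hsph1 and Dnajb1 among them. HSF1 targets are also known to be switched on by warming and by tissue handling.

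The promoters of 7 members are shown as reference sequence from RefSeq (build GRCm38.p6, 250 bases before to 50 after the gene start, read 5′ to 3′ on the strand of the gene). Capitals mark heat shock elements found by letter match, in the 3-unit form (GAANNTTCNNGAA or TTCNNGAANNTTC) where there is one and otherwise as the inverted pair of units (GAANNTTC or TTCNNGAA). Both forms read on both strands, and every 3-unit match holds a match to the pair. Hspa1a and Hspa1b are shown because their copies are nearly alike, Hsph1 and Dnajb1 because they were lower after CLP, Dnajb4 and Dnajb6 because they were higher, and Hspe1 because its gene lies head to head with Hspd1 and their windows overlap.
Hspa1a, chr17:34972107-34972406, minus strand: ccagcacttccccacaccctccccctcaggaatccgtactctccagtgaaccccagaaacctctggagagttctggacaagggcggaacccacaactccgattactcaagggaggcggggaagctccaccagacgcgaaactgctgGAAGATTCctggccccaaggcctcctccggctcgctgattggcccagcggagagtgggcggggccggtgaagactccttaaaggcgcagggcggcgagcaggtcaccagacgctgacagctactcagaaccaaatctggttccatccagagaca
Hspa1b, chr17:34959189-34959488, minus strand: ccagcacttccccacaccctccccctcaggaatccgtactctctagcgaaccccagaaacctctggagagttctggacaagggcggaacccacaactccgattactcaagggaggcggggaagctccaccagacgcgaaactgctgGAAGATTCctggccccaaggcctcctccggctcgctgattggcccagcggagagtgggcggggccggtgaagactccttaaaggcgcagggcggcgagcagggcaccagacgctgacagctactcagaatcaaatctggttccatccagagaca
Hsph1, chr5:149636266-149636565, minus strand: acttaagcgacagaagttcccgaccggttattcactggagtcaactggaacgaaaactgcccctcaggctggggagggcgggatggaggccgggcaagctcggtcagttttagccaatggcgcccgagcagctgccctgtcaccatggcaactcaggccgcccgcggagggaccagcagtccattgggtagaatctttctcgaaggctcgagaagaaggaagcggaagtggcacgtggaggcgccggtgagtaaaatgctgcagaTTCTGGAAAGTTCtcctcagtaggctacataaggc
Dnajb1, chr8:83607925-83608224, plus strand: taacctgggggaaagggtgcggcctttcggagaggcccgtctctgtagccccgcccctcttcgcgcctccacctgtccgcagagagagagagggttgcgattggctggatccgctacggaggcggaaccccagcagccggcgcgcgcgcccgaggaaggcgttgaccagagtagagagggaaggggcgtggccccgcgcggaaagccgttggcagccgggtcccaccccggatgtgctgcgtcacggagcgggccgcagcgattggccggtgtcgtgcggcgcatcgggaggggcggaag
Dnajb4, chr3:152193796-152194095, minus strand: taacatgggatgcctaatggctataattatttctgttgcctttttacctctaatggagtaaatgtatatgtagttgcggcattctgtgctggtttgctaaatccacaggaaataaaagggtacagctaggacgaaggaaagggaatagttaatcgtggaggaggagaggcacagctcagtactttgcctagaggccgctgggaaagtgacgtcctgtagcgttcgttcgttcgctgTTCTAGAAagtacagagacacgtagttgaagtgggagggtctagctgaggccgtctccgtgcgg
Dnajb6, chr5:29735648-29735947, plus strand: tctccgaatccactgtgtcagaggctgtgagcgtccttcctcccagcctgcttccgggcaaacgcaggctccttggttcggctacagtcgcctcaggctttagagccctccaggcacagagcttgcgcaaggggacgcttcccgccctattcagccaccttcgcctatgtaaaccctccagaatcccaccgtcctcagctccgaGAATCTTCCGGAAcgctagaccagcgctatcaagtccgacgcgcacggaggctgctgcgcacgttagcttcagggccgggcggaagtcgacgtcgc
Hspe1, chr1:55087898-55088197, plus strand: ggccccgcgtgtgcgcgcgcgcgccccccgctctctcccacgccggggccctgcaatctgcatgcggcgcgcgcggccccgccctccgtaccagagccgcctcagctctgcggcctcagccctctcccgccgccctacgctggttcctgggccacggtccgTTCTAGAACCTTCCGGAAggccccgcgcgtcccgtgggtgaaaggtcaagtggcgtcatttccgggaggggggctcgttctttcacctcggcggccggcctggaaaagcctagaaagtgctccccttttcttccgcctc

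Of the 34 members 27 had a window in the promoter table. The inverted pair was found for 15 of the 27 genes (55.6%) and the 3-unit form for 5 (18.5%), against 17% and 0.662% of all 27025 genes with a window. The 5 genes with the 3-unit form were Hsph1, Dnajb6, Chordc1, Hspd1 and Hspe1, of which Hsph1 was lower after CLP, Dnajb6 was higher and the other 3 did not pass. The matches of Hspd1 and Hspe1 are the same stretch read on opposite strands. Those of Hspa1a and Hspa1b lie in near copies, so these counts of genes are not counts of independent sites. Neither Dnajb1 window held either form, and of the 2 Dnajb4 windows the one not shown, chr3:152210034-152210333, held none. A letter match describes the sequence, and no match says only that these letters are not in the window. Windows for Hspa8, Hspa9, Hsp90aa1, Hsp90ab1, Hsf1, St13 and Cct4 were not used here.

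After CLP, with TMM scaling, the genes for the constitutive chaperones Hspa8, Hspa9 and Hsp90ab1 and for all 8 CCT subunits were higher. Bag3, St13, Stip1, Dnaja2, Dnajb4 and Dnajb6 were higher too. The heat-inducible genes Hsph1 and Dnajb1 were lower, while the inducible Hspa1a, Hspa1b, Hsp90aa1 and Dnaja1 did not pass. Inducible genes were not tested as a set, and those named here are not a full list. Bag3 and Dnajb4, both higher, were among the members not sorted as inducible or constitutive. No direction can therefore be given for inducible genes as a group. With TMM scaling 17 of 34 members were higher after CLP (50%) and 2 were lower (5.88%), at an adjusted p under 0.05 in edgeR's quasi-likelihood test, while 15 did not pass. Over all 14004 genes tested 19.8% were higher and 23.5% lower, and among the 7987 genes that averaged 10 CPM or more these shares were 27.4% and 23.1%. The median log2 fold change (CLP over Sham) was 0.22 for the members and -0.05 for all genes tested. All 4 CLP libraries lay above all 4 Sham libraries for 16 members and below them for 2, Hspa4l and Dnajb1. Of all genes tested 41.5% did not overlap between the groups, 18.7% with CLP above and 22.8% with CLP below.

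These directions depend on the scaling. Scaled by library totals instead, the log2 fold changes of all genes shifted by a median of -0.32, and 6 members were higher and 12 lower, where 9.2% and 45.9% of all genes were. The median member stood 0.28 above the median of all genes on the log2 scale under both scalings. A change of scaling moves all genes nearly alike, so this distance could hardly differ between them. It was 0.183 when only genes of 10 CPM or more entered the fit. The 6 members called higher under both scalings were Hspa8, Bag3, Stip1, Dnaja2, Dnajb4 and Tcp1, and Hsph1 and Dnajb1 were called lower under both. Without Sham replicate 4, the library with the most RNA of the cycling cell markers, 18 members were higher and 1, Dnajb1, was lower.

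**Figure D1:**
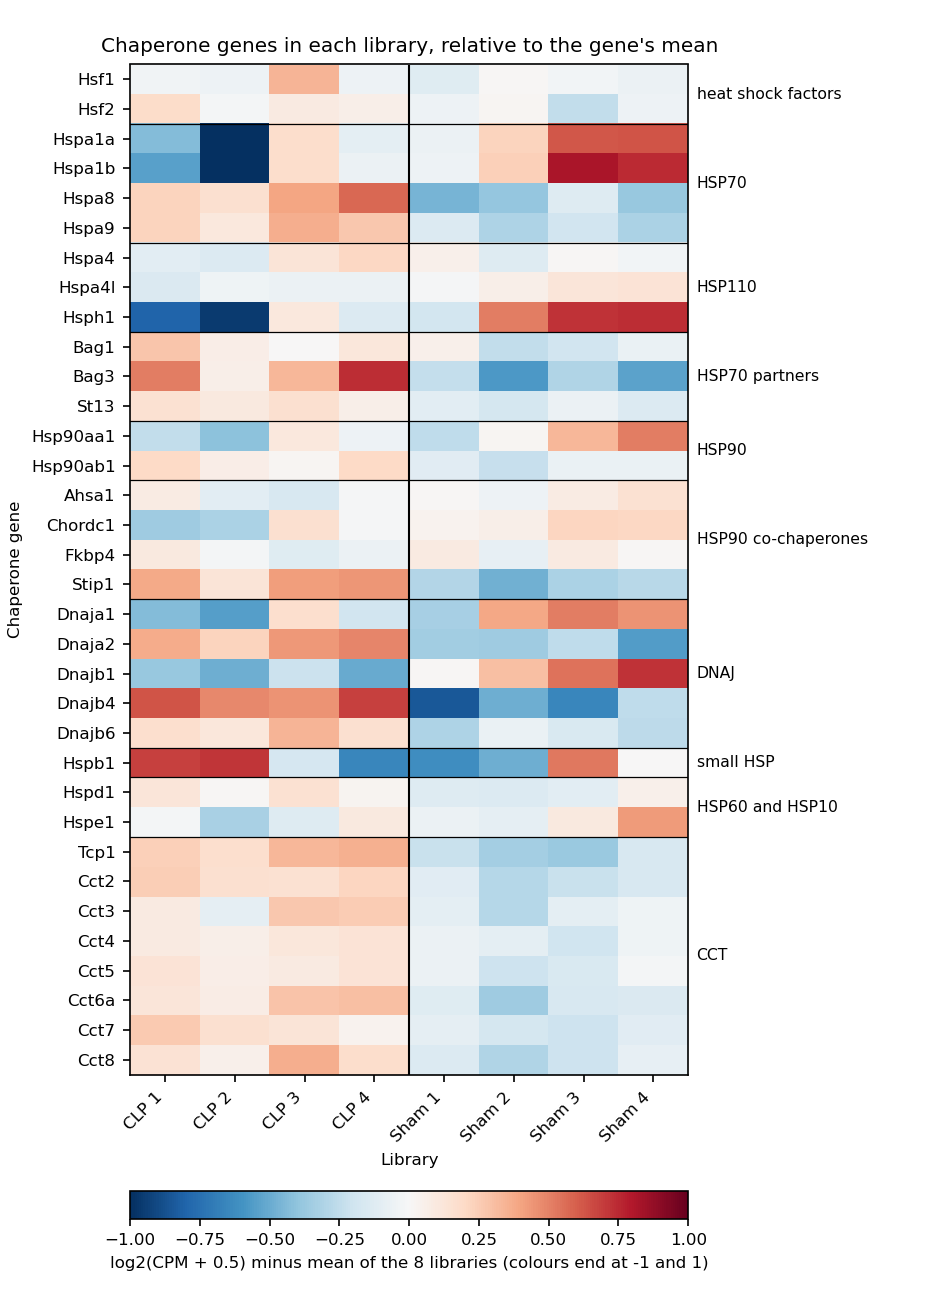
Level of each of the 34 chaperone genes (rows, grouped by class) in each library (columns, CLP left, Sham right), as log2(CPM + 0.5) minus the gene's mean over the 8 libraries. Hspa8, Hspa9, Dnaja2, Dnajb4, Stip1 and most CCT rows are red in CLP and blue in Sham, whereas Hspa1a, Hspa1b, Hsph1 and Dnajb1 are highest in Sham replicates 3 and 4 and lowest in CLP replicates 1 and 2, except that Dnajb1 is low in all 4 CLP libraries.

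**Figure D2:**
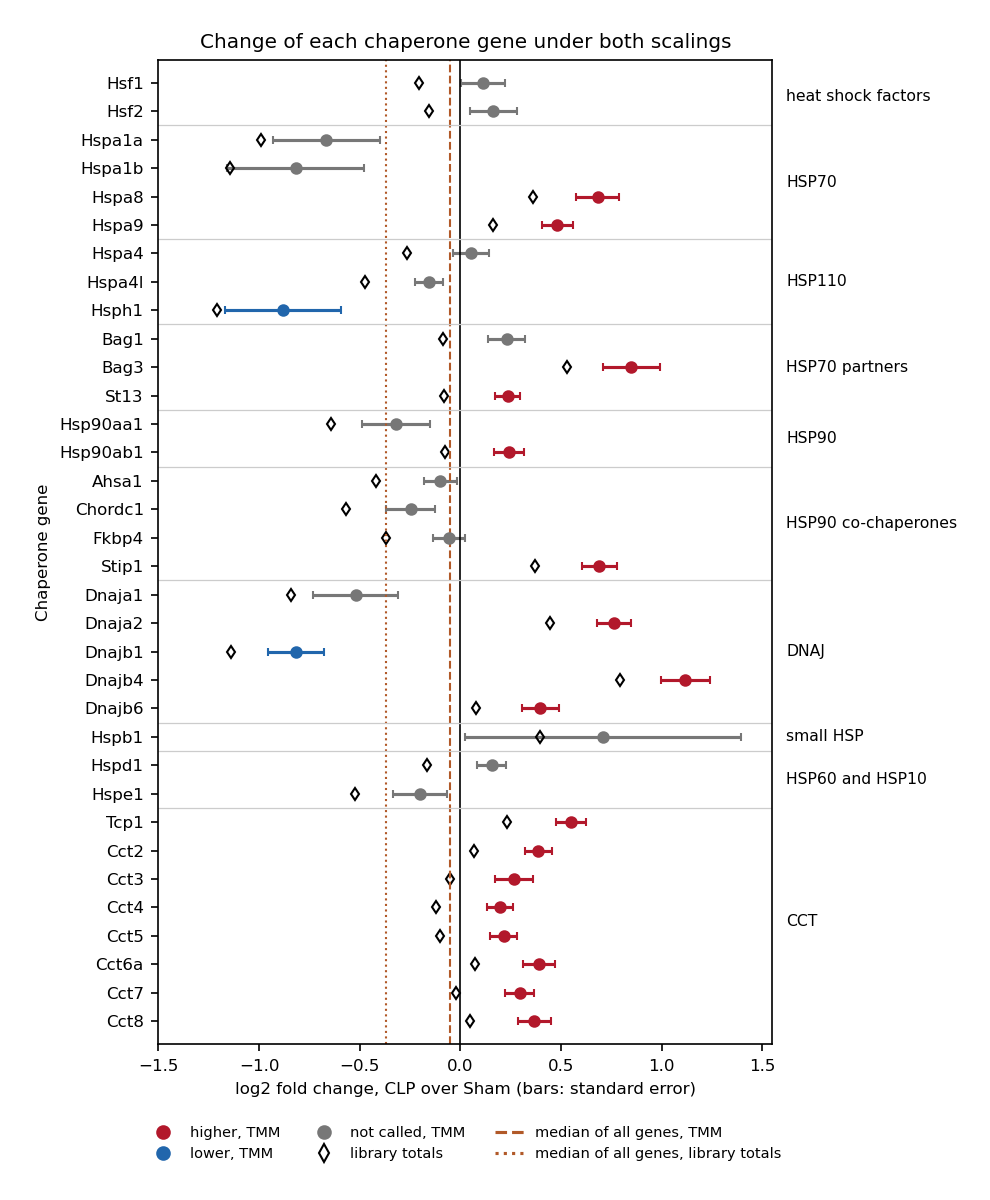
Log2 fold change of each chaperone gene, CLP over Sham, with its standard error (n = 4 libraries a group), with TMM scaling (circles) and on library totals (open diamonds), and the median of all genes tested under each scaling (dashed and dotted lines at -0.05 and -0.37). All 8 CCT circles lie right of 0 and 4 of their diamonds lie left of it. Every CCT value stays right of its own median line, but a change of scaling moves genes and line nearly alike.

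Neither transcription factor of the response passed the test. Hsf1, the main heat shock factor, had 23.1, 22.9, 30.0 and 22.8 CPM in CLP libraries, against 21.7, 23.8, 23.1 and 22.6 CPM in Sham libraries (log2 fold change 0.11, SE 0.11, adjusted p = 0.429). Hsf2, a second factor that binds the same elements, averaged 11.5 ± 0.704 CPM in CLP and 10.3 ± 0.832 CPM in Sham libraries (SD, n = 4 each, adjusted p = 0.289). Both values overlapped between the groups, and mRNA levels say nothing of how much of either factor was active.

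Among the HSP70 genes the 2 constitutive members were higher with TMM scaling, and the inducible pair did not pass. Hspa8, which encodes the constitutive cytosolic chaperone Hsc70, had 1098, 1052, 1235 and 1400.2 CPM in CLP libraries, against 681, 719, 859 and 722 CPM in Sham libraries. Every CLP library was above every Sham library, with a log2 fold change at 0.68 (SE 0.11, adjusted p = 0.000427) that was 0.36 on library totals (adjusted p = 0.0105). Hspa9, which encodes mortalin, the HSP70 of mitochondria, had 208, 192, 228 and 214 CPM after CLP, against 161, 143, 156 and 143 CPM after Sham surgery (log2 fold change 0.48, SE 0.08, adjusted p = 0.000458, but 0.17 and adjusted p = 0.0659 on library totals).

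Hspa1a and Hspa1b, the neighbouring genes of the strongly heat-inducible HSP70, did not pass. Hspa1a had 105, 68.1, 160.3 and 133 CPM in CLP libraries, against 137, 165, 218 and 219.9 CPM in Sham libraries (log2 fold change -0.67, SE 0.27, adjusted p = 0.0751). Hspa1b had 82.8, 47.9, 137 and 116 CPM in CLP libraries, against 117, 143, 214 and 203 CPM in Sham libraries (log2 fold change -0.82, SE 0.34, adjusted p = 0.089). For both genes CLP replicate 2 was the lowest library of all, and CLP replicate 3 was above Sham replicate 1.

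On library totals both were called lower (Hspa1a -0.99, adjusted p = 0.0135, and Hspa1b -1.14, adjusted p = 0.0239). Without CLP replicate 3 Hspa1a alone of the pair was called (adjusted p = 0.0495), and so it was in DESeq2. Both were called lower with only genes of 10 CPM or more in the fit and with a block for replicate number. The reading frames of the 2 genes differ by 8 substitutions and 3 gap positions (99.4% identity, longest identical run 638 bases), and the 2 promoter windows differ at 4 of 300 bases. How reads were shared between the copies is therefore uncertain, and their sum is the safer value. It was 188, 116, 297 and 249 CPM in CLP libraries, against 253, 308, 432 and 423 CPM in Sham libraries, so CLP replicate 3 was the only CLP library above a Sham library.

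The HSP110 genes encode large relatives of HSP70 that act as its nucleotide exchange factors. Hsph1, the heat-inducible one, had 30.2, 27.0, 56.9 and 48.2 CPM in CLP libraries, against 46.5, 75.8, 88.0 and 88.8 CPM in Sham libraries. It fell 1.84-fold (log2 fold change -0.88, SE 0.29, adjusted p = 0.0382), although CLP replicates 3 and 4 lay above Sham replicate 1. It no longer passed without CLP replicate 1 (adjusted p = 0.0983), 2 (0.0925) or 4 (0.0561) or Sham replicate 2 (0.0779), 3 (0.097) or 4 (0.0716), and with no filter on low counts (0.115).

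The other HSP110 genes did not pass with TMM scaling in the reported fit. Hspa4, the most abundant of the class, had 159.6, 156, 188 and 198 CPM in CLP libraries, against 178, 157, 173 and 168 CPM in Sham libraries (log2 fold change 0.05, SE 0.09, adjusted p = 0.665, and -0.27 on library totals). Hspa4l was at 54.0 ± 1.76 CPM in CLP and 60.2 ± 2.95 CPM in Sham libraries (SD, n = 4 each), without overlap and without a call (adjusted p = 0.0886). On library totals Hspa4 (adjusted p = 0.0184) and Hspa4l (-0.48, adjusted p = 0.000413) were called lower. Hspa4l was also called lower with only genes of 10 CPM or more in the fit.

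By a rule that ranked 9524 genes of at least 5 CPM on their centred log2 CPM over the 8 libraries, Hspa1a (distance 0.528) and Hspa1b (0.562) were the genes nearest to Hsph1, followed by Fam193b (0.565). Fam193b itself was at 8.97, 10.8, 17.3 and 13.4 CPM in CLP libraries, against 20.0, 25.1, 30.1 and 28.0 CPM in Sham libraries (log2 fold change -1.03, adjusted p = 0.00173). In each of these genes CLP replicate 3 was the highest CLP library and Sham replicate 1 the lowest Sham library.

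Partners that steer the HSP70 cycle were higher or did not pass. Bag3, an exchange factor of HSP70 that links it to selective autophagy, had 41.6, 30.2, 36.6 and 48.6 CPM in CLP libraries, against 24.4, 19.3, 23.4 and 19.9 CPM in Sham libraries (log2 fold change 0.85, SE 0.14, adjusted p = 0.000666, and 0.53 on library totals, adjusted p = 0.0054). St13, which encodes the HSP70-interacting protein Hip, had 182, 174, 182 and 170.4 CPM after CLP, against 152, 145, 157 and 149 CPM after Sham surgery (log2 fold change 0.24, adjusted p = 0.01, but 0.0623 with no filter on low counts, and a log2 fold change of -0.08 on library totals). Bag1, another exchange factor, averaged 46.2 ± 3.93 CPM in CLP and 39.4 ± 3.69 CPM in Sham libraries (SD, n = 4 each) and did not pass (adjusted p = 0.0639). Bag1 was called higher in DESeq2, with DESeq2 size factors, with a block for replicate number and without CLP replicate 3 or Sham replicate 1. On library totals its log2 fold change was -0.0859, without a call.

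Of the cytosolic HSP90 genes 1 was higher with TMM scaling and 1 did not pass. Hsp90ab1, the constitutive HSP90-beta gene, had 919, 839.7, 814 and 919 CPM in CLP libraries, against 740.2, 683, 766 and 765 CPM in Sham libraries. The groups did not overlap (log2 fold change 0.24, SE 0.07, adjusted p = 0.0222), but the value was -0.08 on library totals, and it did not pass with no filter on low counts (adjusted p = 0.054) or when CLP replicate 1 or 4 (adjusted p = 0.0649 and 0.0679) or Sham replicate 2 (0.0643) was left out. Hsp90aa1, the inducible HSP90-alpha gene, had 113, 101, 145 and 129.8 CPM in CLP libraries, against 113, 136, 169 and 193 CPM in Sham libraries (log2 fold change -0.32, SE 0.17, adjusted p = 0.162, and -0.64 on library totals, adjusted p = 0.0146). Sham replicate 1 was lower than 3 of the 4 CLP libraries.

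Of 4 HSP90 co-chaperones 1 was higher. Stip1, which encodes Hop, the adaptor that hands clients from HSP70 to HSP90, had 87.7, 73.6, 90.4 and 91.9 CPM in CLP libraries, against 55.0, 48.3, 54.1 and 55.5 CPM in Sham libraries. No library overlapped between the groups (log2 fold change 0.69, SE 0.09, adjusted p = 0.000101). On library totals the value was 0.37 (adjusted p = 0.00339). Ahsa1, an activator of the HSP90 ATPase, the immunophilin Fkbp4 and Chordc1 had log2 fold changes of -0.10, -0.05 and -0.25 with adjusted p of 0.358, 0.615 and 0.126, and all 3 overlapped between the groups. On library totals these 3 were called lower (-0.42, -0.37 and -0.57).

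DNAJ genes, which encode the J-domain proteins that stimulate the HSP70 ATPase, held both the largest rise and one of the falls. Dnajb4 had 63.3, 57.4, 55.9 and 65.8 CPM in CLP libraries, against 22.4, 29.0, 25.9 and 34.2 CPM in Sham libraries. It rose 2.17-fold (log2 fold change 1.12, SE 0.12, adjusted p = 3.99e-05), the largest called change among the 34 members, and was 0.79 higher on library totals (adjusted p = 0.000462). Dnaja2, a constitutive partner of Hsc70 and the most abundant DNAJ member after CLP, had 157, 142, 164 and 170.1 CPM in CLP libraries, against 95.1, 94.7, 101 and 82.1 CPM in Sham libraries (log2 fold change 0.76, SE 0.09, adjusted p = 4.35e-05).

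Dnajb6, a suppressor of protein aggregation, had 32.3, 31.0, 36.3 and 32.2 CPM in CLP libraries, against 23.1, 27.4, 25.8 and 23.8 CPM in Sham libraries (log2 fold change 0.40, adjusted p = 0.00428, and 0.08 on library totals, adjusted p = 0.495). Dnajb1, the heat-inducible Hsp40, moved the other way, with 48.0, 44.3, 53.8 and 43.7 CPM in CLP libraries, against 62.9, 77.0, 91.2 and 103 CPM in Sham libraries. The CLP values lay close together below all Sham values, a 1.76-fold fall (log2 fold change -0.82, SE 0.14, adjusted p = 0.000915) that held in each of the 16 alternative fits. Dnaja1, which is also heat-inducible, had 71.7, 66.0, 109 and 84.8 CPM in CLP libraries, against 76.9, 127, 138 and 133 CPM in Sham libraries. It did not pass (log2 fold change -0.52, SE 0.21, adjusted p = 0.0787), though it was called lower without CLP replicate 3 (0.0379) or Sham replicate 1 (0.00678). Dnaja1 was also called lower in DESeq2, with a block for replicate number and with only genes of 10 CPM or more in the fit. On library totals it was called lower too (-0.84, adjusted p = 0.0114).

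**Figure D3:**
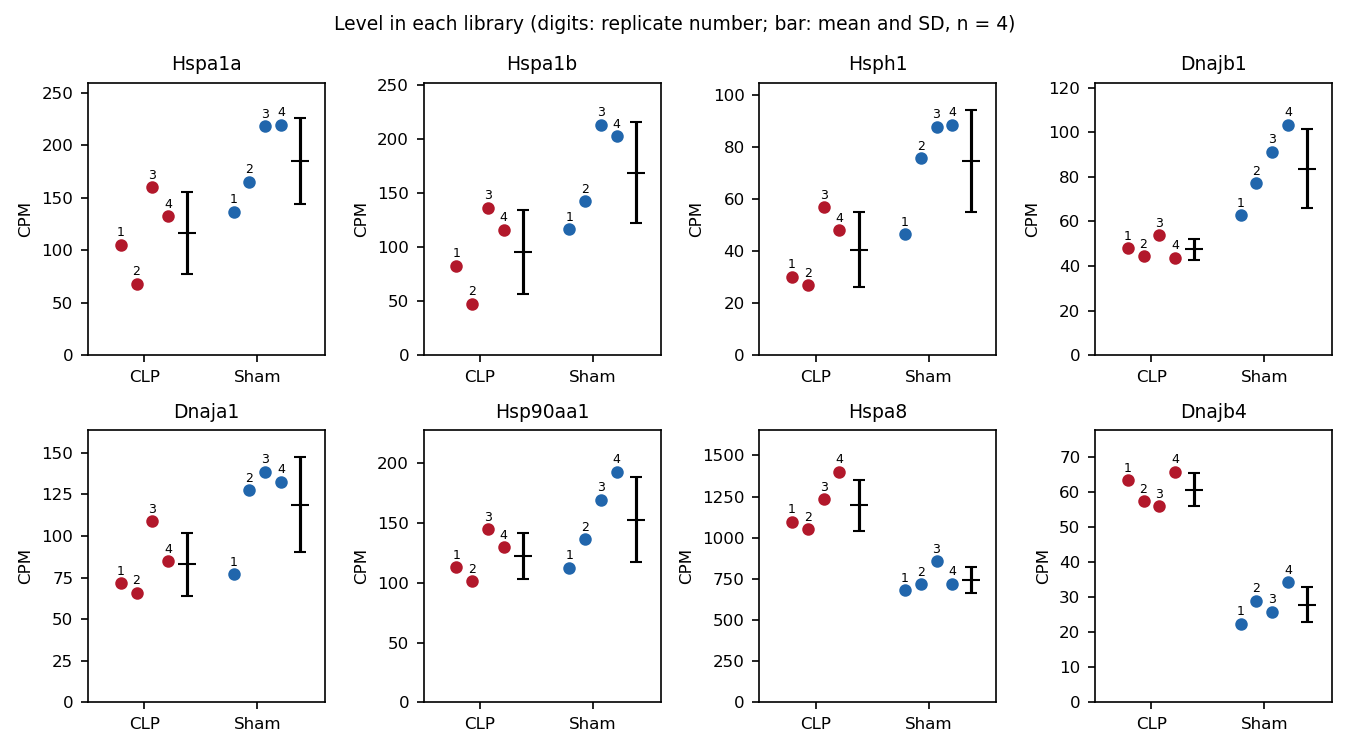
CPM of 6 genes named here as inducible (Hspa1a, Hspa1b, Hsph1, Dnajb1, Dnaja1 and Hsp90aa1, not a full list) and of Hspa8 and Dnajb4 in each library (points, digit = replicate number), CLP left and Sham right, with mean and SD (n = 4). Dnajb1 is the 1 inducible gene of these 6 whose groups do not overlap, and Hspa8 and Dnajb4 are higher in all CLP libraries.

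The small heat shock protein gene and the mitochondrial chaperonin showed no called change with TMM scaling and all libraries in the reported fit. Hspb1, which encodes Hsp27, rested on 17, 22, 7 and 2 reads in CLP libraries, against 4, 5, 16 and 12 reads in Sham libraries. Its level was 0.132 to 1.12 CPM in CLP and 0.145 to 0.932 CPM in Sham libraries. At this depth no difference was detectable (adjusted p = 0.438). Hspd1, which encodes mitochondrial HSP60, had 113, 105, 116 and 106 CPM in CLP libraries, against 95.1, 94.7, 96.5 and 108 CPM in Sham libraries (log2 fold change 0.16, adjusted p = 0.0989). Without Sham replicate 4 it was called higher (0.22, adjusted p = 0.0353), as it was in DESeq2 and with DESeq2 size factors. Its co-chaperonin Hspe1 averaged 27.5 ± 3.40 CPM in CLP and 31.6 ± 5.54 CPM in Sham libraries (SD, n = 4 each, adjusted p = 0.25). On library totals Hspe1 was called lower (-0.52, adjusted p = 0.00777). Exons of Hspd1 and Hspe1 overlap on opposite strands by 112 bases in the annotation used.

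All 8 CCT subunit genes were higher after CLP with TMM scaling, by log2 fold changes of 0.20 to 0.55, whereas on library totals only Tcp1 was called higher, none was called lower, and Cct3, Cct4, Cct5 and Cct7 had values just below 0. Relative to the median of all genes the class stood 0.38 higher on the log2 scale under both scalings. A change of scaling moves all genes nearly alike, so this agreement is no separate support. With only genes of 10 CPM or more in the fit the distance was 0.299. Tcp1, the alpha subunit, had 113, 108, 122 and 123 CPM in CLP libraries, against 82.2, 75.8, 74.3 and 86.0 CPM in Sham libraries (log2 fold change 0.55, SE 0.08, adjusted p = 0.000176, and 0.23 on library totals, adjusted p = 0.024). Cct2, the most abundant subunit gene per length, had 178, 167, 167 and 175 CPM after CLP, against 138, 123, 128 and 134 CPM after Sham surgery (0.39, adjusted p = 0.000666).

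Cct6a (log2 fold change 0.39, adjusted p = 0.00251) had 117, 113, 131 and 132 CPM in CLP libraries, against 98.9, 83.9, 96.0 and 97.3 CPM in Sham libraries. Cct8 (0.37, adjusted p = 0.00402) had 125, 117, 146 and 128 CPM in CLP libraries, against 103, 91.9, 98.2 and 107 CPM in Sham libraries. Cct7 (0.29, adjusted p = 0.00563) had 112, 105, 102 and 95.8 CPM in CLP libraries, against 88.0, 82.6, 81.0 and 86.4 CPM in Sham libraries. None of these 3 overlapped between the groups.

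The 3 smallest changes of the class were the least firm. Cct3 had 82.3, 72.5, 93.2 and 92.4 CPM in CLP libraries, against 72.4, 63.3, 72.1 and 74.9 CPM in Sham libraries, and it was the 1 subunit gene whose groups overlapped (0.27, adjusted p = 0.0377). Cct5 had 136, 129, 131 and 135 CPM in CLP libraries, against 118, 107, 111 and 122 CPM in Sham libraries (0.22, adjusted p = 0.0217). Cct4 had 126, 123, 128 and 130.2 CPM in CLP libraries, against 114, 111, 103 and 115 CPM in Sham libraries (0.20, adjusted p = 0.028). Cct3 lost its call without CLP replicate 1 (adjusted p = 0.056), 3 (0.0749) or 4 (0.108) or Sham replicate 2 (0.0683), Cct4 without CLP replicate 1 (0.0513) or 4 (0.0722) or Sham replicate 3 (0.0526), and Cct5 without CLP replicate 1 (0.0525) or 4 (0.0567). With no filter on low counts Cct3 (0.0564), Cct4 (0.159) and Cct5 (0.109) were not called, which left 5 of 8. With only genes of 10 CPM or more in the fit Cct3 (0.0759) and Cct4 (0.0605) were not called, which left 6 of 8.

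The summed level of the 8 CCT genes was 989.5, 935, 1021 and 1012 CPM in CLP libraries, against 815, 738, 764 and 823 CPM in Sham libraries. The subunits are needed in equal number in the complex. Their mean levels ranged from 85.1 to 172 CPM in CLP and from 70.7 to 131 CPM in Sham libraries. Per kilobase of exon they ranged from 13.4 to 67.1 CPM per kb in CLP libraries and from 11.1 to 51.3 CPM per kb in Sham libraries. That length joins all annotated exons of a gene, from 2557 bases (Cct2) to 6778 bases (Cct7), and may exceed the transcript, so the range per kb does not measure unequal expression of subunits. Without Sham replicate 4 all 8 were still called higher. Markers of cycling cells summed to 169 to 282 CPM in CLP libraries, against 90.1 to 174 CPM in Sham replicates 1 to 3 and 569 CPM in Sham replicate 4. Their part in the CCT values was not tested. Leaving out Sham replicate 4 is no such test, since it was the highest Sham library for 5 of the 8 CCT genes.

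**Figure D4:**
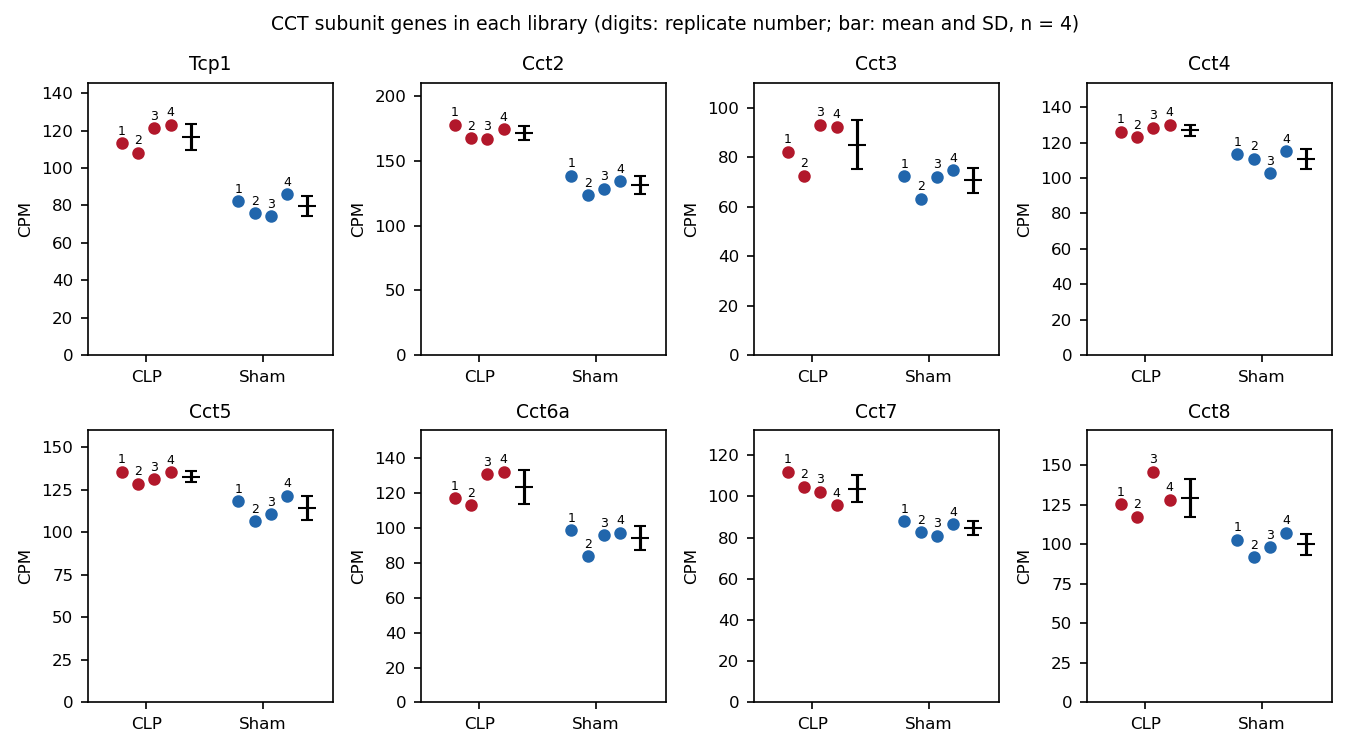
CPM of the 8 CCT subunit genes in each library (points, digit = replicate number), CLP left and Sham right, with mean and SD (n = 4 a group, y axes start at 0). The groups overlap for Cct3 alone, where CLP replicate 2 (72.5 CPM) lies below Sham replicate 4 (74.9 CPM). On library totals, which are not plotted, 1 subunit gene was called.

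Levels between genes can be compared only roughly per kilobase of exon, since the length joins all annotated exons of a gene and may exceed its transcript. On that scale Hsp90ab1 (291 CPM per kb in CLP and 246 CPM per kb in Sham libraries) and Hspa8 (278 CPM per kb in CLP and 173 CPM per kb in Sham libraries) stood far above the rest. In Sham libraries Hspa1a (62.4 CPM per kb) and Hspa1b (60.3 CPM per kb) came next, ahead of Cct2 (51.3 CPM per kb). In CLP libraries Cct2 (67.1 CPM per kb), Dnaja2 (53.2 CPM per kb) and Hspa9 (48.8 CPM per kb) came next, and Hspa1a (39.3 CPM per kb) and Hspa1b (34.2 CPM per kb) were lower in the order. The place of the last 2 depends on how reads were shared between them.

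Ratios of an inducible gene to its constitutive relative within a library do not depend on the scaling. Hspa1a plus Hspa1b over Hspa8 was 0.171, 0.110, 0.240 and 0.178 in CLP libraries, against 0.372, 0.429, 0.503 and 0.586 in Sham libraries, with no overlap. Hsph1 over Hspa4 was 0.189, 0.173, 0.304 and 0.244 in CLP libraries, against 0.262, 0.483, 0.510 and 0.527 in Sham libraries, and CLP replicate 3 was above Sham replicate 1. Hsp90aa1 over Hsp90ab1 averaged 0.141 ± 0.0264 in CLP and 0.206 ± 0.0420 in Sham libraries (SD, n = 4 each), again with CLP replicate 3 (0.178) above Sham replicate 1 (0.152). These ratios of CPM are descriptions without a test. Hspa8 and, with TMM scaling, Hsp90ab1 were themselves higher after CLP, and the sum of Hspa1a and Hspa1b overlapped between the groups. A lower ratio therefore does not measure the inducible gene alone.

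**Figure D5:**
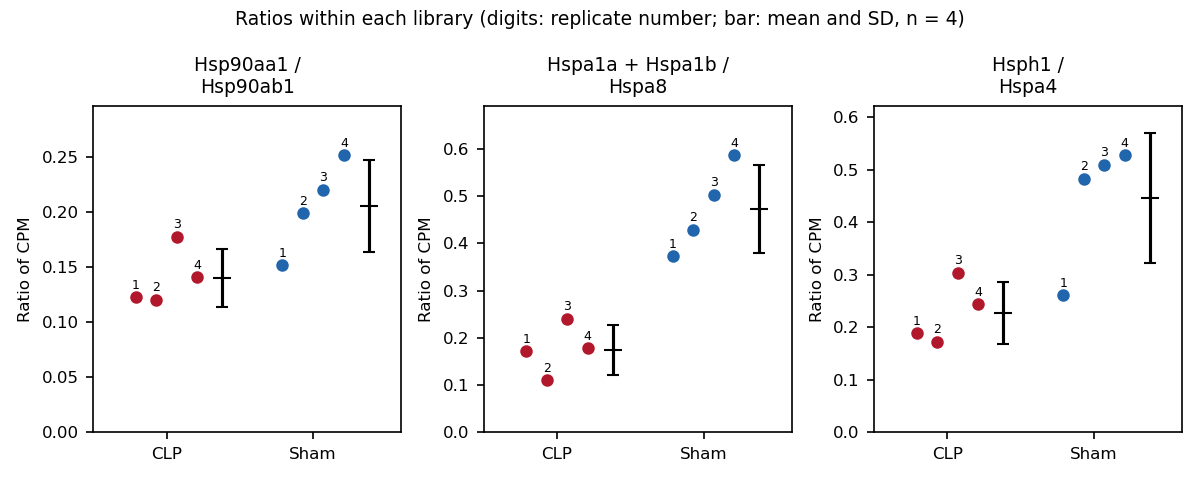
Ratio of CPM of inducible over constitutive relatives in each library (points, digit = replicate number), CLP left and Sham right, with mean and SD (n = 4). All CLP values of Hspa1a plus Hspa1b over Hspa8 lie below all Sham values (0.110 to 0.240 against 0.372 to 0.586), and in the other panels CLP replicate 3 overlaps with Sham replicate 1. Hspa8 itself was higher after CLP.

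The spread between libraries of a group was itself uneven over the members. Hspa1b, the most variable member apart from the barely detected Hspb1, had a coefficient of variation of 40.6% in CLP and 27.7% in Sham libraries, and Hsph1 had 35.4% in CLP and 26.4% in Sham libraries. Cct4 had 2.36% in CLP and 4.96% in Sham libraries. CLP replicate 2 was the lowest CLP library for 21 of the 34 members, and Sham replicate 4 the highest Sham library for 15.

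All 11 markers of red pulp macrophages were detected, with sums of 43904 to 50209 CPM in CLP libraries and 37439 to 45895 CPM in Sham libraries. They did not move together. Of the 11 markers 7 were called higher after CLP, and 2 were called lower without overlap, against 19.8% and 23.5% of all genes. These 2 were Slc40a1 (log2 fold change -0.40, adjusted p = 0.0074) and Mertk (-0.51, adjusted p = 0.000175). Summed markers were low for neutrophils (10.3 to 27.3 CPM in CLP and 3.25 to 13.9 CPM in Sham libraries), monocytes (9.42 to 17.2 CPM in CLP and 10.2 to 11.3 CPM in Sham libraries) and T and NK cells (9.66 to 25.5 CPM in CLP and 8.88 to 17.0 CPM in Sham libraries). Of the 3 neutrophil markers tested S100a8 (4.40-fold, adjusted p = 0.00351) and S100a9 (4.91-fold, adjusted p = 0.0053) were higher after CLP without overlap, Retnlg did not pass, and the other 7 were too low to test. Platelet markers summed to 18.0 to 22.5 CPM in CLP and 6.77 to 7.95 CPM in Sham libraries, without overlap. B cell markers summed to 108 to 180.1 CPM in CLP and 115 to 201 CPM in Sham libraries. Of the 5 B cell markers Cd79b alone was called, lower without overlap (log2 fold change -0.58, adjusted p = 0.00339). Of the 5 T and NK cell markers Ncr1 alone was called, 4.14-fold lower without overlap (adjusted p = 0.002). Ncr1 averaged only 0.207 CPM in CLP and 0.873 CPM in Sham libraries. Erythroid markers summed to 453 to 837 CPM in CLP and 174 to 441 CPM in Sham libraries, also without overlap. Of 10 early genes known to respond to tissue dissociation, as the inducible chaperones do, 3 were higher and 3 lower, against 19.8% and 23.5% of all genes. The rises were smaller (Ier2 1.72-fold, Dusp1 1.67-fold and Zfp36 1.53-fold) than the falls (Fos 5.18-fold, Fosb 5.10-fold and Egr1 4.66-fold). The sum of the 10, 6992 to 7382 CPM in CLP and 5961 to 8044 CPM in Sham libraries, does not show these opposite changes. The part of other cells or of handling in the chaperone levels was not tested, and in such bulk libraries fewer cells of a type and less RNA per cell cannot be told apart.

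Among other genes of the chaperone network about as many were higher as lower. Of 105 listed genes outside the 34 members 95 were tested, and 18 were higher (18.9%) and 16 lower (16.8%), against 19.8% and 23.5% of all genes, with a median log2 fold change of 0.04. On library totals 6 were higher and 43 lower. Among DNAJ genes outside the members 8 of 33 were higher and 8 lower, among HSP90 co-chaperones 2 of 18 were higher and 4 lower, and of 9 prefoldin subunits and CCT helpers none was higher and 1, Pdcl, was lower (named after its value was seen).

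Among called genes averaging 5 CPM or more the highest was Hspa14, an HSP70 relative bound to ribosomes, with 87.8, 90.8, 87.0 and 93.2 CPM in CLP libraries, against 32.4, 34.3, 35.2 and 31.8 CPM in Sham libraries (log2 fold change 1.42, SE 0.07, adjusted p = 6.43e-07). Its exons overlap those of the gene model Gm45902 on the same strand, so its count is uncertain. Dnajb2, a J-domain protein that sorts clients to the proteasome, had 48.0, 42.9, 47.6 and 42.0 CPM in CLP libraries, against 23.2, 27.1, 26.9 and 29.8 CPM in Sham libraries (0.76, adjusted p = 9.71e-05). Hspa5, which encodes BiP, the HSP70 of the endoplasmic reticulum, averaged 1256 ± 107 CPM in CLP and 770.5 ± 84.1 CPM in Sham libraries (SD, n = 4 each, 0.71, adjusted p = 0.000163).

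The lowest called genes averaging 5 CPM or more were Ttc4, Dnajc30 and Bag4. Ttc4, a co-chaperone of HSP90, had 9.74, 7.92, 10.4 and 8.40 CPM in CLP libraries, against 23.6, 24.1, 23.7 and 26.1 CPM in Sham libraries (log2 fold change -1.42, SE 0.11, adjusted p = 5.82e-06). The mitochondrial J-domain gene Dnajc30 fell to 4.91 ± 0.551 CPM in CLP libraries, against 9.83 ± 0.569 CPM in Sham libraries (SD, n = 4 each, adjusted p = 0.00021). Bag4, a relative of Bag3, fell to 19.3 ± 2.89 CPM in CLP libraries, against 35.2 ± 1.19 CPM in Sham libraries (-0.87, adjusted p = 9.34e-05), the direction opposite to that of Bag3. The most abundant listed gene, Eef1a1, a translation elongation factor linked to HSF1 activation, was at 3063 ± 201 CPM in CLP and 2420.2 ± 168 CPM in Sham libraries (0.34, adjusted p = 0.00606, but 0.02 and adjusted p = 0.785 on library totals).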

How the data were processed

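Raw counts per Ensembl gene were deposited by the authors as 1 table over the 8 libraries. The submitters' processing notes name the build mm39 and, without roles, STAR 2.7.10b, featureCounts, FastQC and DESeq2, and per the labels' protocols the libraries were stranded (Illumina TruSeq). Strand use in counting and the annotation version: not given in the sources used here. Reads of genes overlapping on opposite strands, as at Tcp1, Cct6a, Cct7, Cct8, Dnaja1, Dnajb6, Hspa1a, Hspd1 and Hspe1, cannot be told apart with certainty. Groups and replicate numbers came from the titles.

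Of 55414 IDs 52081 were matched to symbols of GENCODE release M21 (a build before that of the counts), which served for symbols, exon length and overlaps. The counts were fitted with edgeR 4.0.16 in R 4.3.3: filterByExpr (14004 genes), TMM factors (0.873 to 0.915 in CLP, 1.08 to 1.15 in Sham libraries), robust quasi-likelihood F-test on group, Benjamini-Hochberg over all genes tested, threshold 0.05. SE is the absolute log2 fold change over the square root of F. A gene at 1 CPM rests on 15.1 to 27.6 reads per library. Within groups, library pairs differed by more than sampling noise (chi-square per degree of freedom at least 8.48), and each was kept as a replicate.

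The members and lists were chosen with earlier results of these data known. Named genes were every called member, the most abundant member of each class, the 3 highest and 3 lowest called genes of at least 5 CPM and the most abundant gene of a list of 105 other chaperone genes, and the 3 genes nearest to Hsph1 by Euclidean distance of centred log2(CPM + 0.5). The remaining members are given by group values. Alternatives were DESeq2 1.42.0, limma-voom (limma 3.58.1), DESeq2 size factors, library totals, other filters, 1 surrogate variable (sva 3.50.0), a replicate block and each library left out. The background at a mean of at least 10 CPM was added after the data were seen. The edgeR step was tested on simulated data. Promoter windows are RefSeq's (GRCm38.p6), a build other than that of the counts. Figures used matplotlib 3.10.9.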

Additional observations from a re-analysis of the deposited data

Results flagged for a closer look

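Of 68 groups of 4 libraries (34 members, both groups), 3 had a library far from the others by Dixon's criterion, where chance flags about 1 in 20 groups. Hsf1 was at 30.0 CPM in CLP replicate 3, against 22.8 to 23.1 CPM in the other CLP libraries. Hspa4l was at 51.4 CPM in CLP replicate 1, below the 54.7 to 55.3 CPM of the other CLP libraries. Hspd1 was at 108 CPM in Sham replicate 4, above the 94.7 to 96.5 CPM of the other Sham libraries.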

How the results depend on the processing

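The balance of calls depended most on scaling. With library totals 6 members were higher and 12 lower, 6 and 43 of the other chaperone genes, and 1288 and 6427 of all genes. Of the members, Hsf1 (-0.20), Hsf2 (-0.15), Hspa4 (-0.27), Bag1 (-0.0859), St13 (-0.082), Hsp90ab1 (-0.0781), Hspd1 (-0.16), Cct3 (-0.0513), Cct4 (-0.12), Cct5 (-0.10) and Cct7 (-0.0224) changed sign with library totals. Hspa4 also did at a mean of at least 10 CPM (-0.00162) and without CLP replicate 4 (-0.00849, up to 0.111 with other single libraries left out), and Fkbp4 without Sham replicate 1 (0.0024). The count of 2 lower members was 4 in DESeq2, 1 with no filter on low counts, 6 at a mean of at least 10 CPM and 6 with a replicate block, and with single libraries left out it was 1 to 5, while the higher members numbered 13 to 18. Against 17 higher members in the reported fit there were 12 with no filter, where St13, Hsp90ab1, Cct3, Cct4 and Cct5 lost their calls, 15 at a mean of at least 10 CPM, where Cct3 and Cct4 did, and 19 in DESeq2. At a mean of at least 10 CPM fewer genes were tested, and 2189 of them were lower.

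The labels do not state whether replicate numbers pair the libraries. Deviations of same-numbered libraries from their group means correlated by 0.08, -0.06, 0.31 and -0.25. Those of differently numbered libraries correlated by -0.26 to 0.23. Such correlations cannot show or exclude pairing, so the block was kept as an alternative. With the replicate block 18 members were higher, and Hspa1a, Hspa1b, Hsp90aa1 and Dnaja1 joined Hsph1 and Dnajb1 as lower. Over all 34 members and 16 alternatives 466 of 543 values kept direction and side of the threshold. Hspa8, Bag3, Stip1, Dnaja2, Dnajb1, Dnajb4 and Tcp1 did so under every alternative. Depth limits Hspb1, which had no value at a mean of at least 10 CPM. The causes of these differences were not tested.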
